A study of Mus musculus with 6 samples.

Results

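The genes described here were close to silent in wild-type (WT) bone marrow cultures and were measured at higher levels in cultures lacking Dnmt3a. Of 14639 named genes in a table of 15139 rows, 73 were chosen by their FPKM values in the 5 libraries, which is 0.499%. A member was below 2 FPKM in each of 3 WT libraries, at or above 1 FPKM in both Dnmt3a knockout libraries, and in each knockout library at or above 2 times its highest WT value. FPKM scales the sequenced fragments of a gene by transcript length and library size, so levels of different genes can be compared per length. The same rule with the genotypes exchanged, called the mirrored set, gave 116 genes (0.792%). The rule used the difference between the genotypes, so the levels of the members below are a description, and no test of them is given.

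Primary mouse bone marrow (BM) cells were grown in medium with 10% serum, IL3 at 10 ng/ml and SCF at 50 ng/ml, and their messenger RNA was sequenced at week 1. The WT group was MxCre+v: Dnmt3a+/+ and the knockout group MxCre+v: Dnmt3a-/-. Both genotypes are therefore labelled as carrying Mx-Cre, a recombinase transgene whose promoter responds to interferon and which is used for deletion in blood-forming cells. Each group has 3 labelled samples. WT replicates 1 to 3 and knockout replicates 2 and 3 are described, and knockout replicate 1 was not analysed here. One label field calls the knockout cells a knockdown. No label gives an age or ties a replicate to an animal or culture, so any p-value measures the spread between these libraries, which may be technical. By their sex-linked genes, WT replicates 2 and 3 were female and the other 3 libraries male.

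Dnmt3a is a de novo DNA methyltransferase that places methyl groups on cytosines, mostly where a C is followed by a G (a CpG). Methylation of CpG-rich promoters is commonly found at genes that are kept silent, such as germline genes, the silent allele of imprinted genes and genes of other lineages. In blood-forming cells Dnmt3a is known for limiting self-renewal, and it is often mutated in clonal haematopoiesis and myeloid leukaemia. DNA methylation itself was not measured in the data described here.

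Dnmt3a was measured at 6.68, 9.99 and 9.04 FPKM in WT replicates 1, 2 and 3 and at 2.58 and 3.42 FPKM in knockout replicates 2 and 3. The groups did not overlap, and the transcript was lower in the knockout but not at 0 (log2 change -1.25 ± 0.17, SE; limma, adjusted p = 0.00279). Across all 11365 tested genes, limma called 1032 higher and 1475 lower in the knockout, together 22.1%. With upper-quartile scaling of the libraries that split became 1374 higher and 1047 lower.

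In the WT libraries the members summed to 49.9, 44.1 and 53.7 FPKM, and in the knockout libraries to 183 and 207 FPKM. That was 0.00751% to 0.00917% of all FPKM in a WT library and 0.0304% to 0.0369% in a knockout library, so the whole set stayed a very small part of the transcriptome. Mean levels per member ran from 0.0200 to 1.70 FPKM in WT (median 0.620) and from 1.01 to 9.22 FPKM in the knockout (median 2.21). In all 3 WT libraries 52 members were under 1 FPKM and 18 under 0.5 FPKM. At the other end, 6 members reached 5 FPKM in both knockout libraries and none reached 10 FPKM in both. The median member moved from the 22.5th percentile of all named genes by WT mean to the 33.5th by knockout mean. The members thus went from near silence to a low level.

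**Figure D1:**
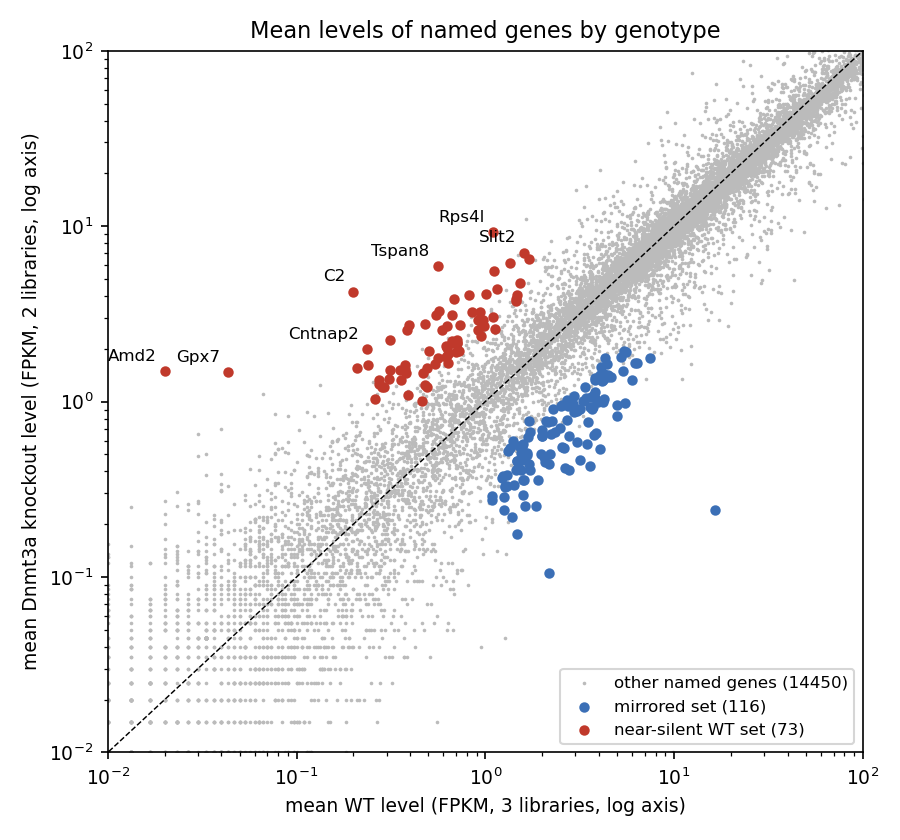
Mean level in 3 WT libraries (x axis, FPKM, log axis) against mean level in 2 Dnmt3a knockout libraries (y axis, FPKM, log axis) for named genes between 0.01 and 100 FPKM, 1 point per gene, with equal levels on the dashed line. The 73 members lie in a band above the line with WT means of at most 1.70 FPKM, and the 116 genes of the mirrored set lie below it.

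The median ratio of the knockout mean to the WT mean was 3.81, against 3.48 for WT over knockout in the mirrored set. The lowest knockout value was a median of 2.52 times the highest WT value. It was at least 3 times that value in 27 members, at least 5 times in 8 and at least 10 times in 3. Just inside the rule lay Med12l (2.0), 9130008F23Rik (2.01), C7 (2.02) and Lgr4 (2.02). Just outside lay Zbtb4 (1.98), Dgki (1.98), Extl1 (1.97) and Dnah8 (1.96), so the edge of the set cut through a continuous range. Before the ratio was applied, 636 named genes met the ceiling in WT and the floor in the knockout, and 73 of them (11.5%) met the ratio too. Among 9986 genes above the ceiling in WT and above the floor in the knockout, 110 (1.10%) met the same ratio. The mirrored shares were 19% of 611 and 1.80% of 9914 genes. A gene under 0.5 FPKM throughout the low group that meets the floor also meets the ratio automatically. That held for 18 members and 25 mirrored genes, and for no gene above the ceiling. The shares below and above the ceiling are therefore not alike, and nothing is read from their difference.

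Both knockout libraries lay above all WT libraries in every member, as the rule requires, and in 20.4% of all tested genes. Both lay below all WT libraries in every mirrored gene and in 30.8% of tested genes. Of the members 72 were called higher by limma, against 9.08% of tested genes, and of the mirrored set 115 of 116 were called lower, against 13.0%. These counts follow from the choice of members and nothing is read from them. With knockout replicate 2 left out, the rule, then with 1 knockout library, held for 143 genes, and with any other single library left out for 87 to 103. The mirrored counts were 190 without knockout replicate 2 and 131 to 156 otherwise.

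The members were ordered by what their products do, a grouping made after their values were seen. In all 7 groups the summed level in each knockout library exceeded that in every WT library, as the rule requires. The groups held 10 transcription regulators, 10 immune ligands, receptors and effectors, 10 guidance, WNT, neurotrophin and other surface receptors or ligands, 9 synapse, channel and neuronal proteins, 9 adhesion, cytoskeleton and GTPase regulators, 7 metabolic enzymes and their regulators, and 18 genes with another role or none that could be stated. No group accounted for most of the set.

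**Figure D2:**
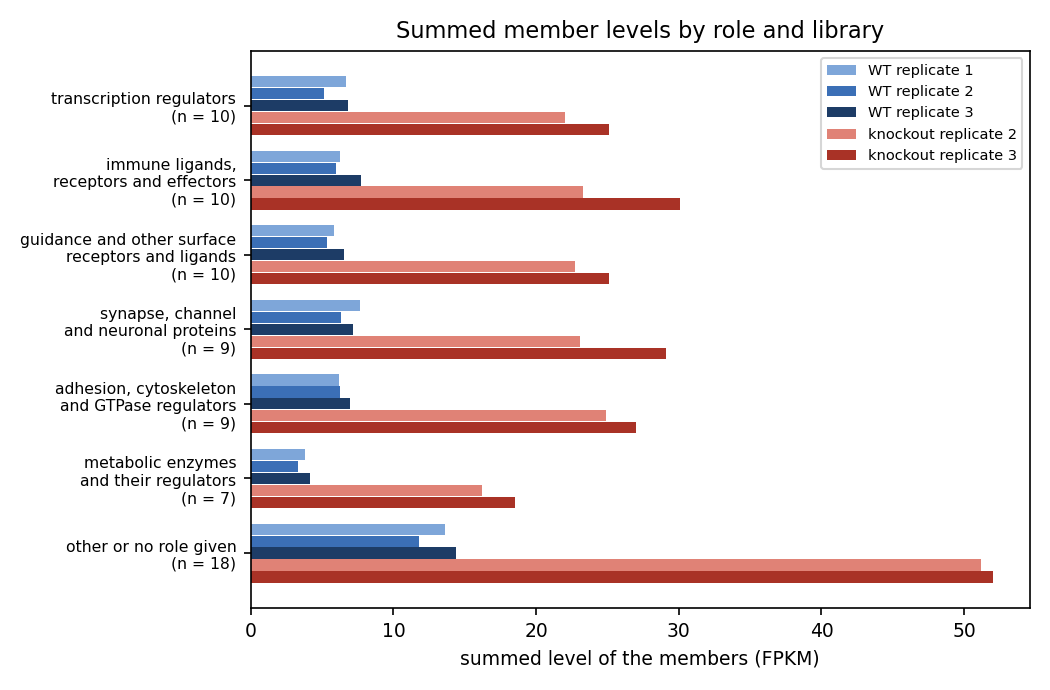
Summed FPKM of the members in each role group (bars, 1 per library, x axis from 0). The 18 genes of other or no stated role had the largest sums, 11.8 to 14.4 FPKM in WT and 51.2 and 52.0 FPKM in the knockout, and knockout replicate 3 was above knockout replicate 2 in every group.

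The sequence before the transcription start is shown for 5 members, because CpG sites there are the possible targets of Dnmt3a and because these 5 span the range from CpG-rich to CpG-poor starts. Each is the 250 bases upstream of a start listed in RefSeq for build GRCm38.p6, written 5′ to 3′ on the gene's strand, with every CG in capitals. Hic1 is at chr11:75170256-75170505 (minus strand), Slit2 at chr5:47982905-47983154 (plus strand), Cntnap2 at chr6:45059811-45060060 (plus strand), Tspan8 at chr10:115817034-115817283 (plus strand) and Csf2 at chr11:54249900-54250149 (minus strand). For Slit2 and Tspan8 the listed start lies inside the annotated gene, so another start lies further upstream.
Hic1: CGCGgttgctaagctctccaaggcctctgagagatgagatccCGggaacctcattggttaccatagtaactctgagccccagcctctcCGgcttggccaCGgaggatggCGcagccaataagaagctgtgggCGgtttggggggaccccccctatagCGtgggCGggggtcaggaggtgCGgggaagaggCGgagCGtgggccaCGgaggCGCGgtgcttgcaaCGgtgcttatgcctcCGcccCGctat
Slit2: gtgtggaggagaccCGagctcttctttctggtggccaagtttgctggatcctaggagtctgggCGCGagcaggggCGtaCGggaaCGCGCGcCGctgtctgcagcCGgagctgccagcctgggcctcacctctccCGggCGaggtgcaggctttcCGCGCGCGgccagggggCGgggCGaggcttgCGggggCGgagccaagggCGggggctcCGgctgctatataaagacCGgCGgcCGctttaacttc
Cntnap2: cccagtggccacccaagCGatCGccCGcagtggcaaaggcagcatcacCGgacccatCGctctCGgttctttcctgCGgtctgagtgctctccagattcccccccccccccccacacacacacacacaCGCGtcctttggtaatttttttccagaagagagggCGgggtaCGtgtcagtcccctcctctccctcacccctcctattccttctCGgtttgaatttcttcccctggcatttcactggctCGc
Tspan8: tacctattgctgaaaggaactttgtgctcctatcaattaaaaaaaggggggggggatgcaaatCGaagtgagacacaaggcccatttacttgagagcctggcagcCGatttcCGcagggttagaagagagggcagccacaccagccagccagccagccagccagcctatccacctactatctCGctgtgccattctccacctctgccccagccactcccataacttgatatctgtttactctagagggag
Csf2: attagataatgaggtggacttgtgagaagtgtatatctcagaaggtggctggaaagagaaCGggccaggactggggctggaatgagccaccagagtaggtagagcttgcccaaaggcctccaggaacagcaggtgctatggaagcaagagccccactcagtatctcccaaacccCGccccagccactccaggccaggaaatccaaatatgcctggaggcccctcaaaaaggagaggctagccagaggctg

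These windows hold 18 CG for Hic1, 25 for Slit2, 13 for Cntnap2, 4 for Tspan8 and 2 for Csf2. Of the 11569 genes of the table with such a window 98.4% held at least 1. A window was found for 55 of the 73 members (75.3%), with 0 to 37 CG. Because fewer than 80% of the members had one, a comparison of the set with other genes by promoter window is void and was not made. The first 250 bases of the longest annotated transcript were available for 71 members. There the ratio of observed to expected CpG had a median of 0.578 in the members, 0.576 in the mirrored set, 0.676 in other named genes of similar level and 0.722 in all named genes. The members and the mirrored set thus had nearly the same median, and both were below the other genes. The middle 50% of members ran from 0.296 to 0.797, so the set held both CpG-poor and CpG-rich starts.

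Values below are in the order WT replicates 1, 2 and 3, then knockout replicates 2 and 3. Among the transcription regulators Hic1, a zinc finger repressor named for its hypermethylation in cancer, had the highest knockout level. It measured 1.46, 0.96 and 1.66 FPKM in WT and 5.80 and 6.59 FPKM in the knockout (6.20 ± 0.559, SD, n = 2). Both knockout values were above 3 times the highest WT value. Hic1 lies at chr11:75161377-75170255, and the promoter printed above ends at its annotated 5′ end.

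Gata3, which directs T helper 2 and innate lymphoid cells and is also active in early blood progenitors, measured 0.66, 0.45 and 0.60 FPKM in WT and 3.23 and 3.33 FPKM in the knockout. Its knockout values were close together and nearly 5 times the highest WT value (4.89). Zfp521, a zinc finger cofactor of immature blood and neural cells, measured 0.89, 0.93 and 1.06 FPKM against 2.43 and 3.12 FPKM. Sox12, an SRY-box factor, measured 0.72, 0.43 and 0.76 FPKM against 1.55 and 1.77 FPKM. For both genes the lowest knockout value stood little over 2 times the highest WT value.

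The other 6 regulators were Med12l, a paralog of a Mediator subunit, Emx2, a homeobox factor of the forebrain and urogenital tract, the retinoid receptor gene Rxrg, Tox, known from T cell development, the forkhead gene Foxq1 and the homeobox gene Hoxb2. Over all 10 regulators the WT means ran from 0.240 to 1.36 FPKM and the knockout means from 1.21 to 6.20 FPKM. Emx2 had the largest separation of the 10, with 0.28, 0.27 and 0.17 FPKM in WT and 1.81 and 1.44 FPKM in the knockout. Hoxb2 was uneven within WT, from 0.54 in replicate 1 to 0.09 FPKM in replicate 3.

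Of the immune genes C2, a complement protease of the classical pathway, showed the widest gap. It measured 0.23, 0.20 and 0.17 FPKM in WT (0.200 ± 0.0300, SD, n = 3) and 2.76 and 5.69 FPKM in the knockout (4.22 ± 2.07, SD, n = 2). Knockout replicate 3 was 2.06 times replicate 2, and even the lower of them was 12 times the highest WT value. C2 lies at chr17:34862602-34882100, where its exons overlap those of Zbtb12 on the opposite strand, measured at 4.42 to 5.54 FPKM in WT and 4.98 and 6.32 FPKM in the knockout. Cfb, the complement gene beside it, measured 0.27 to 0.97 FPKM in WT and 0.28 and 0.45 FPKM in the knockout and was too low to be tested.

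Icos, a costimulatory receptor of activated T cells and innate lymphoid cells, measured 0.76, 0.85 and 0.84 FPKM in WT and 4.57 and 3.57 FPKM in the knockout. The WT values were tight and the knockout values both above 4 times the highest of them. Tnfsf4, the OX40 ligand, measured 0.77, 1.00 and 1.18 FPKM against 2.69 FPKM in both knockout libraries. Csf2, which encodes the cytokine GM-CSF, measured 0.81, 0.35 and 0.96 FPKM against 2.01 and 2.28 FPKM. Il3, the gene next to Csf2 in the cytokine cluster, stayed between 0 and 0.11 FPKM in all 5 libraries.

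Il9r, the receptor for the mast cell growth factor IL9 and the only member on the mast cell list, measured 0.30, 0.65 and 0.68 FPKM in WT and 1.49 and 1.77 FPKM in the knockout. Gzmc, a granzyme of cytotoxic lymphocytes, measured 0.30, 0.39 and 0.25 FPKM against 1.47 and 1.54 FPKM. Gbp4, an interferon-induced guanylate-binding protein, measured 1.35, 0.81 and 1.30 FPKM against 2.85 and 5.86 FPKM, with its knockout libraries further apart than most. Granzymes and guanylate-binding proteins form families of similar genes, so reads may be split between copies, and exons annotated for Gbp4 overlap those of Gbp8 and Gbp9 on the same strand. Gbp8 went the other way, from 1.15, 2.13 and 1.18 FPKM to 0.37 and 0.48 FPKM, and is in the mirrored set, while Gbp9 stayed at 2.81 to 3.27 against 2.68 and 3.44 FPKM.

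The remaining immune members were C7, a component of the complement attack complex, Gimap8, a GTPase of lymphocytes, and the Fc receptor-like gene Fcrlb. Their knockout means were 2.90, 1.94 and 1.21 FPKM, against WT means of 0.920, 0.503 and 0.490 FPKM. Gbp4 and C7 therefore stood with C2 in having knockout replicate 3 well above replicate 2, while Icos and Fcrlb had the reverse order.

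Slit2, a secreted guidance cue that signals through ROBO receptors, was the second highest member. It measured 1.71, 1.45 and 1.67 FPKM in WT (1.61 ± 0.140, SD, n = 3) and 6.60 and 7.52 FPKM in the knockout (7.06 ± 0.651, SD, n = 2). The spread within each genotype was small beside the gap between them. Slit2 spans 326445 bases at chr5:47981291-48307735.

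Frzb, a secreted WNT antagonist, measured 0.21, 0.30 and 0.43 FPKM in WT and 2.62 and 1.87 FPKM in the knockout. Gpr149, an orphan G protein-coupled receptor, measured 0.42, 0.69 and 0.66 FPKM against 2.31 and 2.78 FPKM. The ephrin receptors Epha3 and Epha5 were among the lowest members, with knockout values of 1.29 and 1.13 FPKM for Epha3 and 1.09 and 1.10 FPKM for Epha5, and WT values of at most 0.48 and 0.51 FPKM. Both sat close to the floor of 1 FPKM in the knockout.

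The group also held Eda2r, a receptor for an ectodysplasin isoform, Lgr4, an R-spondin receptor, Ngfr, the low-affinity neurotrophin receptor, the kinase-like gene Styk1, and Rtn4rl1, a relative of the Nogo receptor. Their knockout means ran from 1.25 to 2.68 FPKM and their WT means from 0.273 to 0.723 FPKM. Lgr4 had the widest range of the 10 within WT, with 0.30, 0.80 and 1.02 FPKM, and Eda2r the widest in the knockout, with 1.87 and 3.49 FPKM. Rtn4rl1 and Hic1 are neighbours on chromosome 11, 23738 bases apart, which was the smallest distance between any 2 members. A tested gene between them, Dph1, had means of 6.24 FPKM in WT and of 5.72 FPKM without Dnmt3a (limma, adjusted p = 0.673).

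Among genes known from neurons, Dnm3, a dynamin GTPase also found in megakaryocytes, measured 1.77, 1.44 and 1.88 FPKM in WT and 5.27 and 7.65 FPKM in the knockout. Cacnb4, a calcium channel beta subunit, measured 1.62, 1.33 and 1.46 FPKM against 3.68 and 4.46 FPKM. Cacng3, which regulates AMPA receptors, measured 0.75, 0.86 and 0.44 FPKM against 3.04 and 4.61 FPKM. In each of these genes knockout replicate 3 was the highest library.

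Cntnap2, a neurexin-like adhesion protein of axons, measured 0.27, 0.05 and 0.39 FPKM in WT and 2.04 and 1.95 FPKM in the knockout, where the lower value was 5.00 times the highest WT value. Dlg2, a postsynaptic scaffold, measured 0.59, 0.62 and 0.79 FPKM against 2.06 and 2.26 FPKM. Fam155a measured 1.15, 0.69 and 0.71 FPKM against 2.77 and 3.74 FPKM. The remaining genes of this group, Pnma1, Jakmip1 and the presynaptic scaffold Bsn, had knockout means of 2.02, 1.33 and 1.01 FPKM, and Bsn was the member with the lowest knockout mean. Of 2 defining neuronal genes with a row, Snap25 measured 0.03 to 0.08 FPKM in WT and 0.04 and 0.07 FPKM in the knockout. The other, the synaptic vesicle gene Syp, measured 1.82, 1.73 and 2.09 FPKM in WT and 3.10 and 2.77 FPKM in the knockout, and so stood higher in the knockout as the members did.

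Tspan8, a tetraspanin of epithelial and tumour cells, led the adhesion and cytoskeleton group. It measured 0.72, 0.52 and 0.44 FPKM in WT (0.560 ± 0.144, SD, n = 3) and 5.77 and 6.09 FPKM in the knockout (5.93 ± 0.226, SD, n = 2), and its lowest knockout value was 8.01 times its highest WT value. Tspan8 is on the epithelial and keratin list, of whose 8 tested genes 2 were higher and 1 lower, and which summed to 80.3 to 93.1 FPKM in WT and 111 and 113 FPKM in the knockout. Of its defining genes Epcam measured 0.07 to 0.30 FPKM in WT and 0.71 and 0.30 FPKM in the knockout, and Cdh1, an adhesion gene also known from some blood cells, 46.77 to 59.22 and 44.37 and 41.29 FPKM. The part of epithelial cells in the level of Tspan8 was not tested.

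Fermt2, an integrin activator of adherent cells, measured 0.52, 0.46 and 0.66 FPKM against 2.72 and 3.55 FPKM. Dlc1, a GTPase-activating protein, measured 0.37, 0.43 and 0.64 FPKM against 2.38 and 3.16 FPKM. Itga9, an integrin subunit, measured 0.64, 0.43 and 0.41 FPKM against 1.65 and 1.44 FPKM. Arhgef25, a guanine nucleotide exchange factor, measured 0.43, 0.80 and 0.78 FPKM against 2.01 and 2.42 FPKM.

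The remaining members of that group were Psd3, which activates ARF6, the endothelial junction gene 9430020K01Rik (Jcad in RefSeq), Cobll1 and Kazn. Psd3 had the highest WT mean of the group at 1.45 FPKM, and all 9 had knockout means between 1.54 and 5.93 FPKM.

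In the metabolic group Lipo1 (Lipo3 in RefSeq), a lipase-like gene of a family of close copies, measured 1.06, 1.12 and 1.17 FPKM in WT and 5.84 and 5.24 FPKM in the knockout. Ppp1r3g, a glycogen-targeting subunit of protein phosphatase, measured 1.07, 0.94 and 1.28 FPKM against 2.99 and 3.08 FPKM. Both were stable within each genotype.

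Gpx7, an endoplasmic reticulum peroxidase, was listed at 0, 0 and 0.13 FPKM in WT and measured 1.55 and 1.40 FPKM in the knockout. Amd2 was listed at 0, 0 and 0.06 FPKM in WT and measured 1.05 and 1.94 FPKM in the knockout. These were the only members listed at 0 in any library. Amd2 is a close copy of Amd1, an enzyme of polyamine synthesis measured at 30.98 to 32.54 FPKM in WT and 28.58 and 22.42 FPKM in the knockout, and reads may be assigned to either, so its level is uncertain.

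As3mt, an arsenic methyltransferase, Cth, an enzyme of cysteine synthesis, and Cpt1c, a brain form of carnitine palmitoyltransferase, completed the group. As3mt measured 0.19, 0.10 and 0.34 FPKM against 1.43 and 1.68 FPKM. Cth had knockout values of 2.30 and 3.51 FPKM and Cpt1c of 1.05 and 1.62 FPKM.

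The highest member of all was Rps4l, annotated as a transcribed pseudogene and related to the ribosomal protein gene Rps4x. It measured 0.74, 1.25 and 1.31 FPKM in WT and 11.35 and 7.10 FPKM in the knockout. Its knockout libraries were in the opposite order to most members. Rps4x itself measured 1560.22 to 1648.54 FPKM in WT and 1952.50 and 1715.32 FPKM in the knockout, so shared reads could weigh heavily on Rps4l and its level is uncertain.

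Rcn3, a calcium-binding protein of the secretory pathway, measured 1.27, 1.47 and 1.82 FPKM against 4.66 and 4.81 FPKM. AI593442 measured 1.01, 0.84 and 1.19 FPKM against 3.59 and 4.61 FPKM, and 9330182O14Rik measured 0.50, 0.27 and 0.42 FPKM against 2.76 and 2.68 FPKM. The RNA gene Gm10825 measured 0.73, 0.72 and 0.75 FPKM against 2.37 and 3.10 FPKM. Ttc28, which has tetratricopeptide repeats, measured 0.58, 0.52 and 0.59 FPKM against 1.63 and 1.93 FPKM, and the X-linked Armcx1 measured 0.59, 0.52 and 0.32 FPKM against 1.2 and 1.28 FPKM. In the last pair both knockout values stayed under 2 FPKM.

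The others in this group were 9130008F23Rik, Nynrin, Vwa7, 5730409E04Rik, Flywch2, Gm5544, Vstm2b, Gm16897, Shcbp1l, AI661453 and A430105I19Rik (Ccdc9b in RefSeq). Their knockout means ran from 1.03 FPKM in A430105I19Rik to 3.86 FPKM in 9130008F23Rik. Flywch2 was uneven within WT, with 0.93 FPKM in replicate 1 and 0.12 and 0.11 FPKM in replicates 2 and 3.

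**Figure D3:**
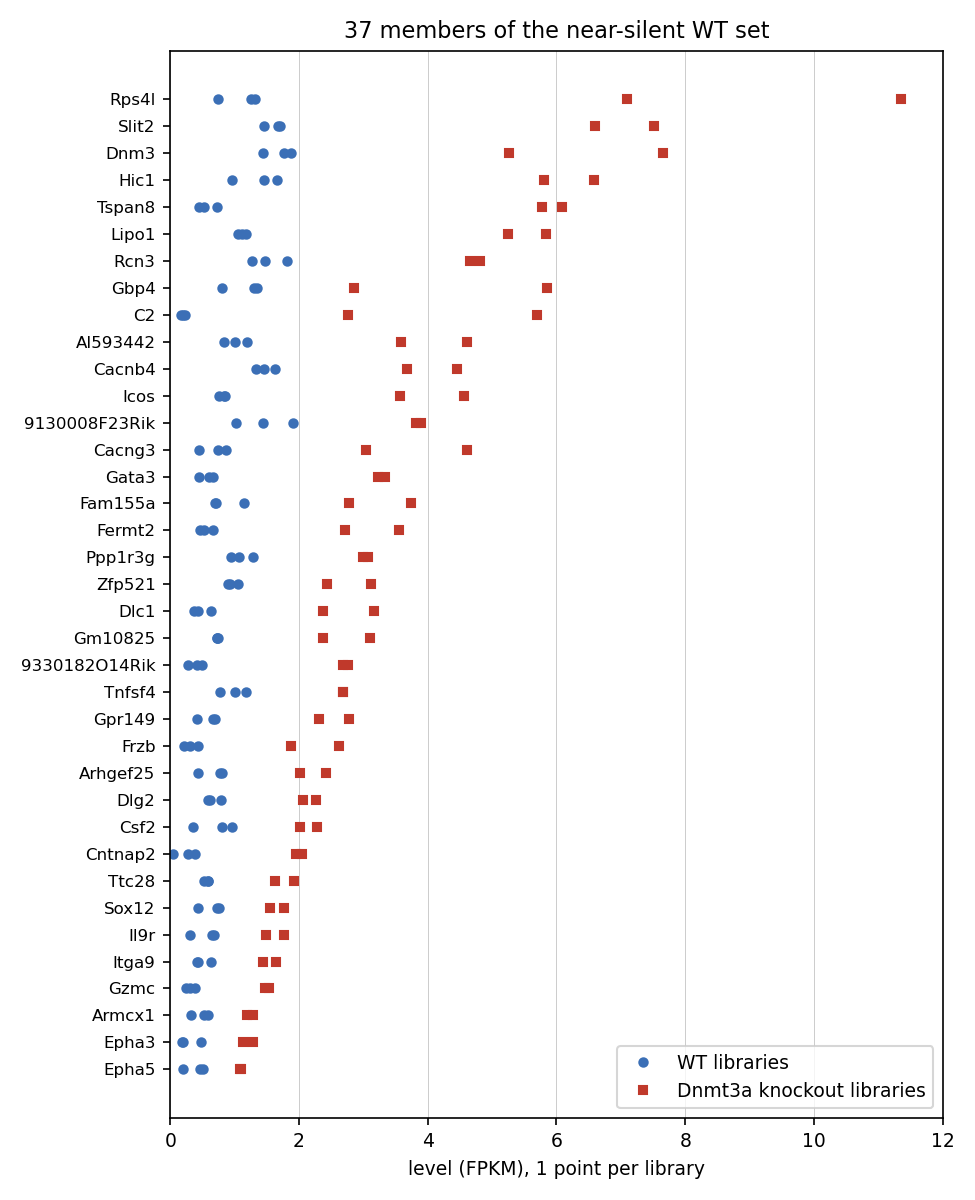
FPKM of 37 members in each of the 5 libraries (x axis, 1 point per library, circles WT and squares knockout), ordered by mean knockout level. In each gene the 2 knockout points lie to the right of the 3 WT points, as the rule requires. The knockout points of C2, Gbp4 and Rps4l lie far apart.

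By name and annotation the set differed in make-up from the mirrored set, as counts. Classes by name were matched by patterns in gene symbols, so they miss genes with other names. Clone or predicted gene names made up 10 of the 73 members (13.7%), 1 of the 116 mirrored genes (0.862%) and 7.97% of all named genes. Symbols of transcription factor families matched 5 members (6.85%: Gata3, Hoxb2, Foxq1, Zfp521 and Sox12), 1 mirrored gene and 3.67% of named genes. The zinc finger gene Hic1 and the homeobox gene Emx2 were not matched. By the annotated transcription factor term there were 6 members (8.22%) and 4 mirrored genes (3.45%), against 3.44% of named genes. Adhesion symbols matched 3 members (Tspan8, Cntnap2 and Itga9, 4.11%), 0 mirrored genes and 0.792% of named genes. The annotated term cell adhesion gave 3 other members (Icos, Slit2 and Gm16897), 1 mirrored gene (Il18) and 0.813% of named genes. Symbols of G protein-coupled receptors matched 1 member (Gpr149, 1.37%) and 6 mirrored genes (5.17%), among them Ccr7, P2ry12 and P2ry13. They made up 1.26% of named genes. The pattern did not match the receptor gene Lgr4, so the member count is a minimum. Transporter symbols numbered 0 against 5 (4.31%), and made up 2.55% of named genes. Of the members 70 were protein coding, 2 were long noncoding RNAs (Gm10825 and Gm16897) and 1 was a pseudogene, whereas all 116 mirrored genes were protein coding. These differences were not tested.

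No gene of the germline, imprinted or immediate-early lists was in the set. Since the rule took 0.499% of named genes and these lists have 41, 45 and 44 genes with a row, their absence is near the share over all genes and nothing is read from it. Of 106 germline and testis genes 41 had a row, 14 were tested and 1, Taf9b, was called higher (7.14%, against 9.08% of all tested genes). Taf9b had 3.93 ± 0.806 FPKM in WT (SD, n = 3) and 7.89 ± 0.269 FPKM in the knockout (SD, n = 2). Its adjusted p was 0.00696 by limma, and 0.0609 with sex as a covariate. The median log2 change of the 14 was 0.08, against -0.04 over tested named genes outside both sets. Ddx4 and Dazl, genes that define germ cells, were far below 1 FPKM in every library and differed in direction. Dazl measured 0.00, 0.03 and 0.03 FPKM in WT and 0.17 and 0.16 FPKM in the knockout, so it was higher there. Ddx4 measured 0.29, 0.09 and 0.21 FPKM in WT and 0.09 and 0.05 FPKM in the knockout. The table has no row in which a whole genotype is at 0, so a gene silent in all WT libraries could not enter the set.

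Of 45 imprinted genes with a row, 24 were tested, of which 3 were higher and 6 lower. By size these were led by Asb4 and Gab1, both in the mirrored set, and by Igf2r, which fell from 5.08 ± 0.694 to 1.96 ± 0.198 FPKM (log2 change -1.03 ± 0.13, SE; limma, adjusted p = 0.00184). Osbpl5 rose from 9.37 ± 0.247 to 17.0 ± 3.30 FPKM (log2 change 0.79 ± 0.12, SE; limma, adjusted p = 0.00405). Among genes of the methylation machinery, 3 of 27 tested (11.1%) were higher and 5 (18.5%) lower. With upper-quartile scaling 5 were higher and 4 lower, and with sex as a covariate 1 was higher and 4 lower. Zbtb4, a zinc finger protein that binds methylated DNA, was the gene nearest to the ratio from outside the set. It measured 1.53, 1.61 and 1.44 FPKM in WT and 3.19 and 4.35 FPKM in the knockout (log2 change 0.91 ± 0.14, SE; limma, adjusted p = 0.00469). Apobec1, a cytidine deaminase, and Idh1, an isocitrate dehydrogenase, fell, with log2 changes of -1.34 ± 0.11 and -0.78 ± 0.09 (SE; limma, adjusted p = 0.000446 and 0.00110).

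The immediate-early list holds genes that respond within minutes to signals and to handling of cells. Of its 38 tested genes 25 (65.8%) were higher and 3 (7.89%) lower, against 9.08% and 13.0% of all tested genes. The median log2 change of the list was 0.79. Fosb, Egr3, Nr4a1 and Egr1 were the largest, with log2 changes of 2.56 ± 0.25, 2.30 ± 0.35, 2.23 ± 0.14 and 2.05 ± 0.18 (SE; limma, adjusted p = 0.000730, 0.00396, 0.000236 and 0.000499). None of the list met the rule. The list summed to 1580, 1489 and 1695 FPKM in WT and to 3399 and 4648 FPKM in the knockout. Knockout replicate 3 was thus above replicate 2 in this sum and in the sum of the members, and WT replicate 3 was the highest and replicate 2 the lowest of the WT libraries in both. The part of immediate-early activity in the result was not tested.

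Bulk libraries mix cell types, and a gain of cells of a type and more RNA of a gene per cell cannot be told apart in them. Several lists of blood cell types moved with the set, and others did not. Outside both sets 8.65% of tested named genes were higher and 12.3% lower. The list counts include genes that the rule chose by their difference. These are Il9r on the mast cell list, Icos on the T, NK and innate lymphoid list and Dlg2 on the neuronal list. Gata3 is on the stem and progenitor list, Tspan8 on the epithelial list and the mirrored gene Acta2 on the stroma and endothelium list. Of the mast cell list's 34 tested genes 26 were higher in the knockout and 1 lower, with a median log2 change of 0.87. It summed to 21150, 19171 and 21529 FPKM in WT and to 44482 and 40378 FPKM in the knockout, and Kit rose from 83.5 ± 4.64 to 195 ± 22.2 FPKM. WT replicates 3, 1 and 2 stood in the same order in this sum as in that of the members, while the knockout replicates stood in the opposite order. On the basophil list 12 of 15 tested genes were higher and 0 lower, with sums of 9420 to 10901 FPKM in WT and 13593 and 13340 FPKM in the knockout. Monocyte and macrophage genes went down, with 26 of 33 tested lower, 1 higher and a median log2 change of -1.50. So did neutrophil genes, with 19 of 28 lower and sums of 27272 to 37979 FPKM in WT and 19189 and 14794 FPKM in the knockout. The neutrophil count was 14 with upper-quartile scaling, 12 without WT replicate 2 and 20 with sex as a covariate. The eosinophil list had 1 of 11 tested genes higher and 0 lower, with a median log2 change of 0.14. The erythroid and megakaryocyte list had 3 of 21 higher and 7 lower, with a median of -0.29. With sex as a covariate 1 of these 21 was higher and 3 lower, and with upper-quartile scaling 3 and 4. Its sums overlapped, at 826 to 927 FPKM in WT and 812 and 838 FPKM in the knockout. The part of shifts between cell types in the levels of the members was not tested.

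Lists of cell types from outside the myeloid lineage gave mixed values. On the T, NK and innate lymphoid list 2 of 9 tested genes were higher and 2 lower, and its sum was 92.8 to 115 FPKM in WT and 91.2 and 96.9 FPKM in the knockout. The T cell receptor subunit Cd3d measured 0.98, 0.74 and 1.08 FPKM in WT and 0.33 and 0.21 FPKM in the knockout, so it was lower where Icos and Gzmc were higher. Cd4 measured 0.00, 0.06 and 0.00 FPKM in WT and 0.28 and 0.18 FPKM in the knockout, and so was higher, as Icos and Gzmc were. Cd8a measured 0.24, 0.37 and 0.45 FPKM in WT and 0.66 and 0.29 FPKM in the knockout, so its groups overlapped. All values of Cd4 and Cd8a were under 1 FPKM. On the neuronal list 4 of 15 tested genes were higher and 1 lower, and its sum was 47.0 to 49.7 FPKM in WT and 69.2 and 75.9 FPKM in the knockout. With sex as a covariate 2 of those 15 were higher and 0 lower. On the stroma and endothelium list 2 of 7 were higher and 2 lower, with Col1a1 at 0.28 to 0.51 FPKM in WT and 0.25 and 0.28 FPKM in the knockout. The endothelial gene Cdh5 was at or below 0.07 FPKM in every library, while Pecam1, shared by endothelium and many blood cells, measured 68.50, 70.38 and 78.58 FPKM in WT and 104.73 and 113.82 FPKM in the knockout. The stem and progenitor list, which holds Gata3, had 11 of 20 tested genes higher and 2 lower and summed to 815 to 879 FPKM in WT and 1455 and 1649 FPKM in the knockout. The B cell list had 0 of 3 tested genes higher and 2 lower.

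The mirrored set held genes of antigen presentation instead: Ccr7, a chemokine receptor of migrating dendritic cells, Cd83, a marker of mature dendritic cells, and Ciita, the master regulator of MHC class II. Ciita measured 3.94, 3.47 and 3.38 FPKM in WT and 0.57 and 0.29 FPKM in the knockout. No member of the near-silent set was on the dendritic cell list, of whose 13 tested genes 11 were lower and 0 higher. Those 13 include Ccr7, Cd83 and Ciita, which the mirrored rule chose for being lower. The mirrored genes with the highest WT means were Eif3j1, Arl5c, Plxnb2, Mcoln2, Scamp5 and Mertk. Eif3j1 measured 23.72 and 23.67 FPKM in WT replicates 1 and 2 but 1.85 FPKM in replicate 3, against 0.28 and 0.20 FPKM in the knockout, so WT replicate 3 lay far below the other WT libraries while still above the knockout.

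The libraries of a genotype were not equal over the set. Knockout replicate 3 exceeded replicate 2 in 54 members (74.0%), was lower in 18 and equal in 1, against 54.9% of tested named genes. In the mirrored set it exceeded replicate 2 in 27.6%. In both sets, then, replicate 3 stood further from WT more often than replicate 2. Among the WT libraries replicate 3 was the highest in 39 members (53.4%) and replicate 2 in 9 (12.3%), against 34.5% and 30.1% of tested named genes. In the mirrored set the order was reversed, with replicate 2 the highest in 47.4% and replicate 3 in 13.8%. The rule treats the WT libraries alike, so their order was not set by it.

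Long genes were frequent in the set. Of the 73 members 15 (20.5%) span at least 200 kb in GRCm38.p6, against 8 of the 116 mirrored genes (6.90%), 5.36% of other named genes with a similar mean level (0.5 to 4 FPKM) and 4.12% of all named genes. The longest were Cntnap2 with 2241333 bases and Dlg2 with 1973059 bases, followed by Fam155a with 567324, Psd3 with 522982 and Dnm3 with 495872. The longest transcripts of the members had a median of 3380 bases, against 3330 in the mirrored set, 3651 in the genes of similar level and 3286 in all named genes. With each library left out in turn the share was 14.6% to 21.8%, but among the 27 members with a ratio of at least 3 only 3 (11.1%) were that long. The share in the set was chosen for description after it was seen and was not tested.

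**Figure D4:**
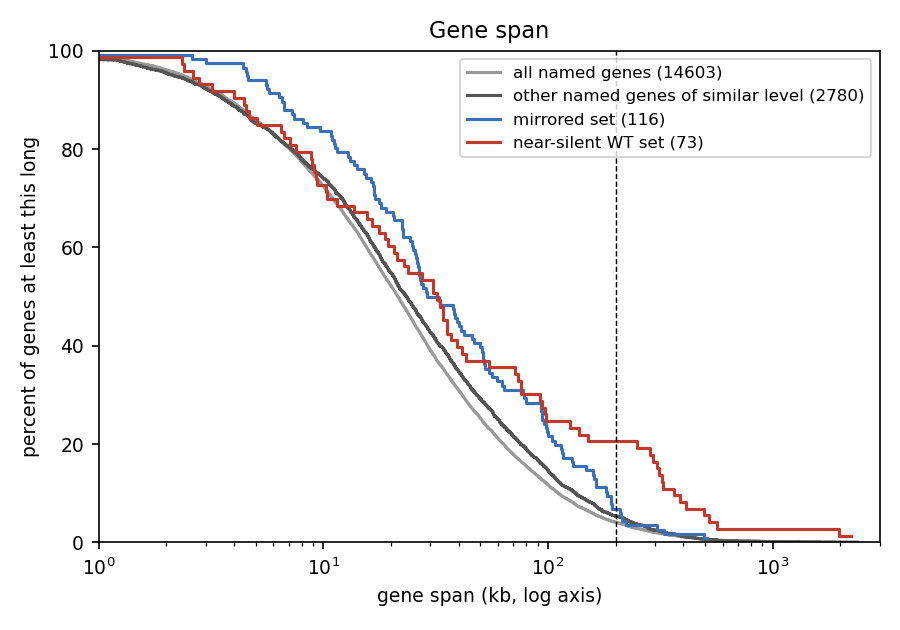
Percent of genes (y axis) whose annotated span is at least the length on the x axis (kb, log axis) for the 73 members, the 116 mirrored genes, other named genes of similar level and all named genes. At the dashed line, 200 kb, the curve of the members stands at 20.5% and that of the mirrored set at 6.90%.

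The levels of some members may include reads of a neighbour. Exons of 23 members overlap those of another annotated gene, 18 of them on the opposite strand, and in 6 cases the other gene has a row. No source used here says whether the libraries kept strand, and without strand such reads cannot be told apart. Gm16897 overlaps Cd34 on the opposite strand at chr1:194955759-194976959. It measured 0.46, 0.67 and 0.72 FPKM in WT and 1.63 and 1.98 FPKM in the knockout, while Cd34, a surface protein of progenitor and mast cells, measured 51.81, 47.25 and 50.23 FPKM and 132.40 and 140.35 FPKM (log2 change 1.44 ± 0.07, SE; limma, adjusted p = 0.000236). Vwa7 overlaps Sapcd1 on the opposite strand. Vwa7 measured 0.66, 0.46 and 0.87 FPKM against 3.37 and 2.85 FPKM, and Sapcd1 rose from 14, 10.92 and 12.21 FPKM to 89.43 and 60.21 FPKM (log2 change 2.48 ± 0.17, SE; limma, adjusted p = 0.000307). In both pairs the overlapping gene was far higher and changed in the same direction as the member.

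Med12l was the opposite case in that its neighbours moved both ways. Inside its introns, on the opposite strand, lie 4 receptor genes with a row. P2ry14 and Gpr171 rose, with log2 changes of 0.60 ± 0.07 and 0.63 ± 0.08 (SE; limma, adjusted p = 0.00142 and 0.00179). P2ry12 and P2ry13 fell, with log2 changes of -0.76 ± 0.14 and -1.10 ± 0.16 (SE; limma, adjusted p = 0.00893 and 0.00341), and both are in the mirrored set. Med12l itself measured 0.96, 0.84 and 1.04 FPKM in WT and 2.08 and 2.63 FPKM in the knockout.

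Genes near the members were looked at next, since the rule did not use them. Of the 177 tested genes within 100 kb of a member, 29 (16.4%) were higher in the knockout and 16 (9.04%) lower, against 8.65% and 12.3% of tested named genes outside both sets. Near the mirrored set 17 of 298 (5.70%) were higher and 60 (20.1%) lower. The median log2 change was 0.02 near the members, -0.12 near the mirrored set and -0.04 elsewhere. With genes that overlap a member left out, 14.6% near the members were higher and 8.19% lower. With sex as a covariate 9.04% near the members were higher and 3.95% lower, against 4.2% and 6.34% of the genes outside both sets. The 177 include genes of the mirrored set. Neighbours of a member share a region, so they are not independent, and the difference was not tested.

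**Figure D5:**
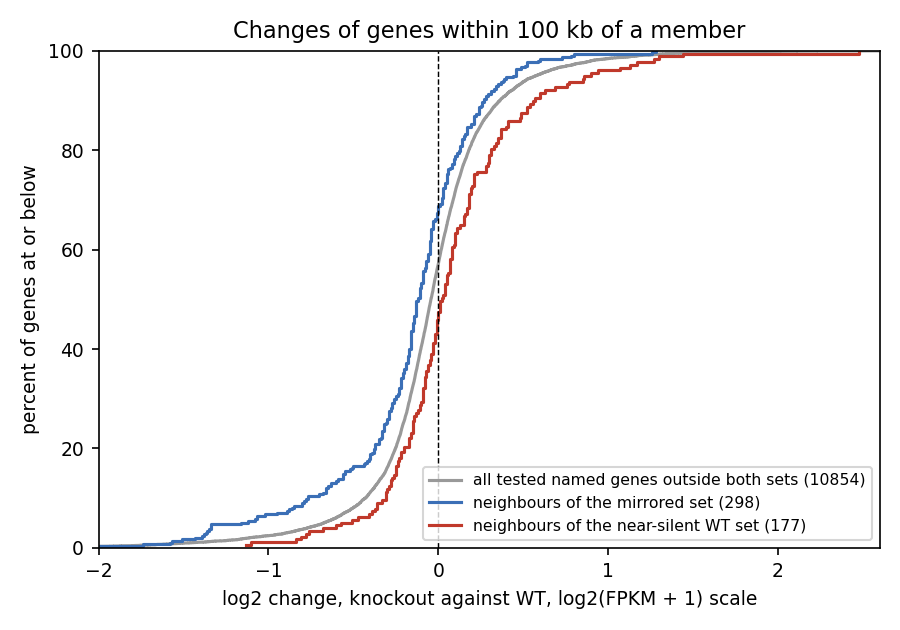
Cumulative percent of genes (y axis) by log2 change of the knockout against WT (x axis, log2(FPKM + 1) scale) for 177 tested genes within 100 kb of a member, 298 within 100 kb of a mirrored gene and 10854 tested named genes outside both sets. The curve near the members lies to the right, with a median of 0.02, and that near the mirrored set to the left, with a median of -0.12.

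Some of these neighbours are relatives of the member. Gimap8 lies in a cluster of related GTPase genes on chromosome 6, of which 4 others were tested within 100 kb and rose. Gimap6 went from 5.39 ± 0.631 FPKM in WT (SD, n = 3) to 13.4 ± 0.184 FPKM in the knockout (SD, n = 2). Its log2 change was 1.17 ± 0.11 (SE; limma, adjusted p = 0.000621). Gimap1, Gimap5 and Gimap9 had log2 changes of 0.90 ± 0.10, 0.85 ± 0.11 and 0.60 ± 0.13 (SE; limma, adjusted p = 0.00137, 0.00191 and 0.0160), the last of which did not pass with sex as a covariate (adjusted p = 0.110) or without knockout replicate 2 (0.0706). The 3 unrelated genes tested in that window, Repin1, Zfp775 and Lrrc61, had log2 changes of 0.13, -0.02 and -0.17 and did not pass. Gimap3 and Gimap4 were too low to be tested, at 0 to 0.08 FPKM in WT and 0.31 to 1.08 FPKM in the knockout.

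Gzmb lies 17189 bases from Gzmc and rose from 561 ± 94.2 FPKM in WT (SD, n = 3) to 1336 ± 1.77 FPKM in the knockout (SD, n = 2). Its log2 change was 1.27 ± 0.14 (SE; limma, adjusted p = 0.00120). Its level was far above that of Gzmc, and how reads of these similar genes were assigned is not given here. Armcx2, 82225 bases from Armcx1, rose (log2 change 0.69 ± 0.14, SE; limma, adjusted p = 0.0130), and did not pass without knockout replicate 2 (0.0644).

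Other members had neighbours that did not follow them. Fcgrt lies 671 bases from Rcn3 and fell from 8.78 ± 1.33 to 4.54 ± 0.495 FPKM (log2 change -0.81 ± 0.13, SE; limma, adjusted p = 0.00562), while Rcn3 was the seventh highest member in the knockout; with sex as a covariate the adjusted p was 0.0545. Tmem126b, which lies head to head with Dlg2 at a distance of 193 bases, went from 9.89 ± 0.639 to 7.21 ± 1.25 FPKM (log2 change -0.41 ± 0.12, SE; limma, adjusted p = 0.0445), a call that was lost in 7 of 12 alternatives (adjusted p up to 0.227), among them upper-quartile scaling and leaving out any WT library. None of the 3 tested genes within 10 kb of Hic1 passed (Smg6, Ovca2 and Dph1, with log2 changes of 0.18, 0.10 and -0.10).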

How the data were processed

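Values are FPKM per gene and library, deposited by the authors in 1 table with 2 decimals, per the file headers. Build mm10, StringTie 1.2.1, HISAT and edgeR are named without roles in the submitters' processing notes, and no source used here gives the strand setting or annotation. FPKM keep no read totals, so depth and counting error are unknown. Names, positions and promoters came from RefSeq (GRCm38.p6) and overlaps from GENCODE M21.

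The members and the 17 gene lists were chosen with earlier results of these data known. All rows, with 500 unnamed gene models, were fitted with limma 3.58.1 in R 4.3.3 on log2(FPKM + 1), with an intensity trend, for genes at 1 FPKM or more in at least 2 libraries. P-values were Benjamini-Hochberg adjusted over 11365 genes (threshold 0.05). This was the plan for FPKM. On this scale the change of low genes is understated. Exact permutation tests were not run, since with 3 and 2 libraries their smallest two-sided p is 0.2. The procedure was tested on simulated data.

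Named members were the 12 highest in the knockout, the 12 with the largest ratio at a knockout mean of at least 2, those on a list, up to 3 per name class and those at the rule's edge. Named non-members were the 6 highest mirrored genes, up to 3 mirrored genes a list, up to 4 called genes of each of 4 lists and neighbours sharing a start. Other names, the role groups, the defining markers, the neighbours and the length of genes were chosen after values were seen.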

Additional observations from a re-analysis of the deposited data

How the results depend on the processing

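A ratio of 1.5 gave 142 members and 183 mirrored genes, a ratio of 3 gave 27 and 34, a ceiling of 5 FPKM in the low group 110 and 185, and a floor of 2 FPKM 38 and 61. A ceiling of 1 FPKM gave 75 mirrored genes. All 73 members were among the 93 found with upper-quartile scaling, and 68 among the 69 with total scaling. With a library left out the rule gave 87 to 143 members and 131 to 190 mirrored genes, since fewer libraries then have to meet it. The share of members spanning at least 200 kb was 11.1% at a ratio of 3. With a library left out it was 14.6% to 21.8%. Genes called by limma were 1312 with sex as a covariate, 2058 with a replicate block, and 1623 to 2659 with a library left out. Replicates of both genotypes share only a number: the differences between replicates 2 and 3 had a correlation of 0.042 across 11365 genes. Dnmt3a passed under all 12 alternatives, with log2 changes from -1.48 to -0.95 and adjusted p from 0.00076 to 0.018 (limma). Of 398 values of 37 named members under the alternatives, 309 stayed within 1 SD of the replicates, 89 moved further and 0 changed sign. The rule put both knockout values of each member at 2 or more times every WT value. The lack of sign changes therefore largely follows from the choice of members, and nothing is read from it. With 2 knockout libraries and unknown depth, levels near 1 FPKM are imprecise, and genes silent throughout a genotype are not in the table.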

Other observations

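Besides the named genes, 5 of the 500 unnamed gene models in the table met the same rule, with mean levels of 0.160 to 1.25 FPKM in WT and 1.75 to 4.24 FPKM in the knockout, and 4 met the mirrored rule.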
